A study of Sus scrofa domesticus with 2 samples.

Results

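Endothelial cells (ECs) of the cultured pig lung that carried no transcript of 8 cell cycle genes made up a small class of 185 cells. They were taken from 5946 lung cells in a series of 7131 cells, which are 2 scRNA-seq libraries, 1 of cultured lung ECs and 1 of cultured aorta ECs from Sus scrofa domesticus. The study cultured these primary cells as a model of endothelial-to-mesenchymal transition, in which ECs take on mesenchymal genes. The lung cells came from 1 perfused and collagenase-digested lung leaf and the aorta cells from the aorta near the lung. Both were grown in culture before capture, neither was given a treatment in the labels, which name no number of animals. The methods describe the pigs behind the scRNA-seq tissues as slaughterhouse animals aged 6 months, a cross of the Landrace, Large White and Duroc breeds, and give no separate origin for the cultured cells.

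Every transcript captured by the 3′ method carries a unique molecular identifier (UMI), so the deposited counts are molecules per gene and cell. Lung cells were first kept if they had more than 200 and fewer than 5000 detected genes, under 30% of UMIs from 13 mitochondrial genes, at least 3 UMIs of PECAM1, at most 2 UMIs of COL1A1 and COL1A2 together and at least 5000 UMIs. This left 4890 cells. The class then took the cells with 0 UMIs of TOP2A, UBE2C, CENPF, CDK1, CDC20, CCNB1, PCNA and MCM6 that also lay at or below the median of kept cells by the share of UMIs from SLPI, CFD and CRYAB. The 185 members were 3.78% of the kept cells (exact binomial 95% interval 3.27 to 4.36), and the other 4705 kept cells served for comparison. They fall into 3 classes by the same limits, namely 2260 cycle-positive SLPI-low cells, 500 cycle-negative SLPI-high cells and 1945 cycle-positive SLPI-high cells.

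A level is the sum of a gene's UMIs over the cells of a class, scaled to 1000000 UMIs (CPM), and carries an exact Poisson 95% interval. Ratios of levels carry exact 95% intervals for 2 counts. All intervals cover counting error only. There was 1 library per tissue, so no difference could be set against the spread between replicates and none was tested. The members were chosen by values from these same cells, and every comparison with other kept cells is therefore a description. A gene was called higher or lower at a ratio of 1.5 or more in either direction, provided that one or both of the classes compared reached 20 CPM. A gene that reached 20 CPM in only 1 of the classes compared had to be higher in that class. Against the other kept cells this called 38 of 5623 genes higher (0.676%) and 322 lower (5.73%), while 44.4% of genes lay above a ratio of 1.

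Cells that divide express their cycle genes in waves. Genes for DNA replication, many of them driven by E2F factors, come on at the entry into S phase, and genes of the mitotic spindle follow in G2 and mitosis, many of them through the MuvB complex at the cell cycle homology region (CHR). A cell that has left the cycle, or that is captured in G1, holds little of either. In a healthy vessel most ECs are quiescent and are kept so by laminar flow, Notch and contact between neighbours, whereas ECs in culture lack flow and divide in serum.

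Depth differed little between members and the rest, but it was lower. Members had a median of 8895 UMIs (10th to 90th percentile 6619 to 11137) and 2695 genes, against 9698 UMIs and 2951 genes in the other kept cells and 10052 UMIs in the cycle-positive SLPI-low cells. Since a shallow cell more often shows 0 UMIs of 8 genes, this difference moves with the rule, and its part in the choice of members was not tested apart from the thinning given here. With every cell thinned to 5000 UMIs before the limits were applied, 475 cells met the rule in place of 185. Cycle-negative cells were 7.57% (6.55 to 8.69) of all SLPI-low cells and 20.4% (18.9 to 22.1) of all SLPI-high cells. With the cycle genes thinned, the shares were 15.5% (14.1 to 17.0) and 31.9% (30.1 to 33.8), so SLPI-low cells had the smaller share either way.

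The values next to the limits show how sharp the class is. Among SLPI-low cells, 262 had 1 UMI of the 8 cycle genes, 222 had 2 UMIs and 192 had 3 UMIs, so more cells lay 1 UMI outside the limit than inside it. At the other limit the median share of SLPI, CFD and CRYAB was 101.8 per 1000000 UMIs, the highest member lay at 101.7 and the lowest cycle-negative cell above it at 102.0. No UMI of SLPI, CFD or CRYAB was seen in 163 members, and 22 members had at least 1. Since 116 of the 500 cycle-negative SLPI-high cells had a single UMI of these genes, the SLPI limit parts many cells by 1 UMI too.

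The endothelial part of the class name was borne out by genes outside the rule. The reference for cells that should lack endothelial genes was 277 lung cells with 20 or more collagen UMIs, fewer than 3 PECAM1 UMIs and at least 5000 UMIs. Members and reference were both chosen by PECAM1, so part of their difference in endothelial genes can follow from that choice. CDH5, the cadherin of endothelial junctions, stood at 165 CPM in members and at 4.88 CPM in the reference. ERG, an endothelial ETS factor, was at 130 CPM against 22.4 CPM in that reference, and ESAM, an adhesion molecule of endothelial junctions, at 143 against 4.88 CPM. Whole lists differed less than these genes. Endothelial surface and junction genes summed to 4607 CPM in members and 1143 CPM in the reference, and endothelial transcription factors to 1392 and 702 CPM. PECAM1, which the rule uses, was at 1685 CPM in members. Of the surface genes, VWF, KDR, FLT4 and LYVE1 were at 0 UMIs in all members, which at the depth of the class allows up to 1.83 CPM (3 counts), and KDR, a receptor for VEGF, was also at only 1.78 CPM in the other kept cells. All 8 epithelial and all 3 measured mesothelial markers and 7 of 9 immune markers were at 0 in members, and the summed immune markers ranged from 6.25 to 11.6 CPM over the 4 classes. Mural markers summed to 927 CPM in members, nearly all of it TAGLN at 919 CPM, and to between 960.0 and 998 CPM in the other 3 classes. Fibroblast markers summed to 420 CPM in members, 407 CPM in cycle-positive SLPI-low cells, 594 CPM in cycle-negative SLPI-high cells and 450 CPM in cycle-positive SLPI-high cells, with DCN and COL6A3 at 0 in members. In the collagen-rich reference mural markers summed to 4119 CPM and fibroblast markers to 1652 CPM.

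The other part of the name holds only for the 8 genes of the rule. Over 97 further genes of replication and mitosis, thinned members held a median of 9 UMIs (10th to 90th percentile 5 to 15, lowest 2, highest 36), and no member was without them. The median was 31 UMIs in cycle-positive SLPI-low cells, 21 UMIs in cycle-positive SLPI-high cells and 7 UMIs in cycle-negative SLPI-high cells. At or below 15 UMIs lay 91.9% of members, 93.0% (90.4 to 95.1) of cycle-negative SLPI-high cells, 37.5% of cycle-positive SLPI-high cells and 19.6% (17.9 to 21.3) of cycle-positive SLPI-low cells. The class thus overlaps with 442 SLPI-low cells that carry cycle transcripts of the rule, and it is called cycle-negative here in the sense of the 8 genes only. Free RNA in the droplets can give such UMIs to any cell, and its part in these counts was not tested.

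**Figure D1:**
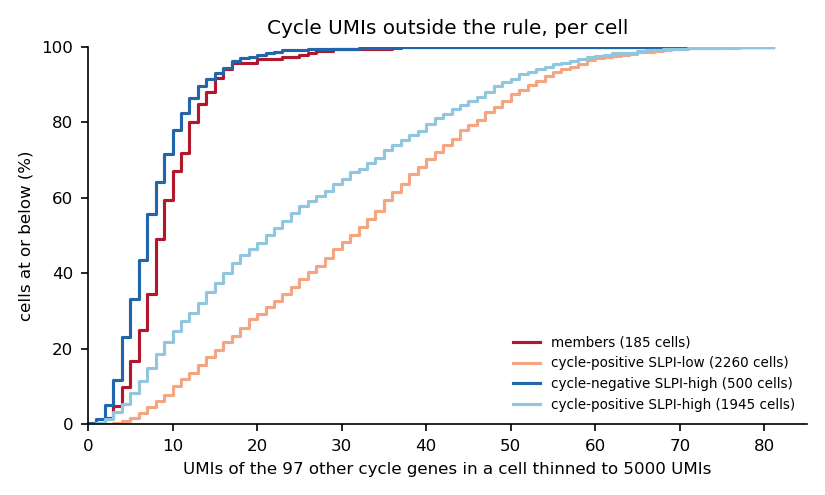
Share of cells (y axis, %) at or below a number of UMIs of the 97 replication and mitosis genes outside the rule (x axis), each cell thinned to 5000 UMIs, for the 4 classes of kept lung cells. The curves of both cycle-negative classes rise together, with medians of 9 and 7 UMIs, and the cycle-positive classes lie to the right, with medians of 31 and 21.

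Replication genes outside the rule were lower in members. Of 28 genes tested, 24 were called lower than in the other kept cells and none higher, with a median log2 ratio of -1.53 beside -0.03 over all 5623 genes. TK1, the thymidine kinase of S phase, was at 14.7 CPM in members against 82.9 CPM in the other kept cells, a ratio of 0.18 (0.11 to 0.26). CLSPN, which couples stalled forks to the checkpoint, was at 3.67 against 54.5 CPM (0.067, 0.025 to 0.15), and MCM7, a subunit of the replicative helicase, at 32.4 against 94.8 CPM (0.34, 0.26 to 0.45). TYMS at 127 against 171 CPM, DUT at 415 against 485 CPM and SLBP at 77.7 against 96.0 CPM stayed within the 1.5-fold limit, and RFC4 at 20.2 against 29.5 CPM was the fourth that did so. TYMS and DUT supply and protect the thymidine nucleotide pool, SLBP binds histone mRNA, and these 3 were well expressed in every class.

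Mitosis genes were lower without exception. All 40 genes tested were called lower, with a median log2 ratio of -2.97. Of these, 27 reached 20 CPM only in the other kept cells, as did 20 of the 28 replication genes, and such genes had to lie below a ratio of 1. KIF20B was at 3.67 CPM in members and 64.0 CPM in the other kept cells, KIF11, the motor that parts the spindle poles, at 8.56 and 96.9 CPM, and TPX2, a spindle assembly factor, at 22.0 and 143 CPM. Among genes at 50 CPM or more, low ratios were also those of DLGAP5 (0.10), BUB1B (0.11), KIF23 (0.12), HMMR (0.13), PRC1 (0.14), HMGB2 (0.15) and, in the histone list, HIST1H1D (0.14). Against cycle-positive SLPI-low cells SPDL1 was at a ratio of 0.021, KIF4A at 0.061 and RACGAP1 at 0.074. The ratios nearest to 1 were those of TUBB4B, a tubulin, at 179 against 303 CPM and BIRC5 (survivin), a part of the chromosomal passenger complex, at 59.9 against 105 CPM. Histone and chromatin genes of cycling cells followed in part, with 2 of 4 histone genes and 12 of 22 chromatin genes called lower. Of the 22 chromatin genes, 4 reached 20 CPM only in the other kept cells. Among genes outside the cycle, histone and chromatin lists the lowest ratios were those of ASPM (0.088), TRIP13 (0.20), PCLAF (0.37), UBE2T (0.39), USP1 (0.40), DBF4 (0.41), CKAP5 (0.45), LYAR (0.45), SYNE2 (0.46), NASP (0.48), ICMT (0.49) and MYBL2 (0.49). Most of these are themselves known in replication, DNA repair or the spindle.

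Promoters of the replication and mitosis lists were read for the sequences through which these waves are known to run. They included those of list genes that were not called lower. The window ran from 250 bases before to 50 bases after the RefSeq gene start in Sscrofa11.1, and motifs were searched on both strands. The E2F motif, TTTCCCGC or TTTGGCGC, was in 9 of 45 promoters of the replication list (20.0%) and 4 of 49 of the mitosis list (8.16%), against 2.36% of 19506 promoters. The CHR motif, TTTGAA, was in 22 of 49 promoters of the mitosis list (44.9%) and 7 of 45 of the replication list (15.6%), against 14.0% of all. Neither motif lay in the windows of FILIP1, WWTR1, HHEX or ANGPTL4, the 4 genes given as markers of the class. No motif is contained in another. The genes with the lowest ratio to cycle-positive SLPI-low cells among those with a motif before the gene start are shown here to give the sequence behind these 2 groups, with the motif in capitals and 60 bases each.
CDT1 (E2F, chr6:897732-897791, minus strand): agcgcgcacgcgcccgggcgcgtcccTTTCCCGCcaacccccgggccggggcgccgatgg
RPA2 (E2F, chr6:85045969-85046028, minus strand): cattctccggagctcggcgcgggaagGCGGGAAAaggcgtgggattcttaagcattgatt
SGO1 (CHR, chr13:7153393-7153452, minus strand): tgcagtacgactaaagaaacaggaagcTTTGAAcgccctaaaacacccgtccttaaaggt
AURKB (CHR, chr12:53426338-53426397, minus strand): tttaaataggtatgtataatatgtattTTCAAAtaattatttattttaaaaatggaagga
CKAP2 (CHR, chr11:15751595-15751654, plus strand): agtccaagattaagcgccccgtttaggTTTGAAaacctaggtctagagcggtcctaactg
All sequences are written along the strand of the gene. CDT1, which loads the helicase at origins, was at 6.12 CPM in members and 34.9 CPM in cycle-positive SLPI-low cells, and RPA2, which binds single-stranded DNA, at 23.2 and 52.8 CPM. SGO1, a guardian of centromeric cohesion, had 1 UMI in all members (0.612 CPM against 29.2), AURKB, the kinase of the passenger complex, had 2 UMIs (1.22 against 41.9 CPM), and CKAP2, a microtubule-binding protein, had 3 UMIs (1.83 against 58.2 CPM). A motif in a window is a match of letters, and binding was not measured.

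FILIP1, WWTR1 and ANGPTL4 were higher in cycle-negative than in cycle-positive cells on both sides of the SLPI limit, by intervals that leave out 1, and HHEX was not. FILIP1 (chr1:90427529-90643061), which promotes the degradation of filamin A, was at 205 CPM (184 to 228) in members, 140 CPM in cycle-positive SLPI-low cells, 173 CPM in cycle-negative SLPI-high cells and 160 CPM in cycle-positive SLPI-high cells. WWTR1 (chr13:89742980-89889547), the transcriptional coactivator TAZ of the Hippo pathway, was at 109 CPM (94.0 to 127) and then, in the same order, 74.1, 105 and 85.5 CPM. Members thus had the highest level of both genes, with intervals that overlap those of cycle-negative SLPI-high cells for WWTR1 and, narrowly, for FILIP1. The ratio to cycle-negative SLPI-high cells was 1.18 (1.04 to 1.34) for FILIP1 and 1.04 (0.87 to 1.24) for WWTR1, so only the interval of WWTR1 included 1.

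HHEX (chr14:104194424-104199684), a homeobox factor of early endothelial and blood development, was at 119 CPM (103 to 137) in members and between 102 and 117 CPM in the other classes, and the intervals of its ratio to cycle-positive SLPI-low cells (0.998 to 1.35) and to cycle-negative SLPI-high cells (0.853 to 1.19) included 1. ANGPTL4 (chr2:70905767-70912892), a secreted inhibitor of lipoprotein lipase, was at 176 CPM (156 to 198) in members, 99.2 CPM in cycle-positive SLPI-low cells, 216 CPM in cycle-negative SLPI-high cells and 152 CPM in cycle-positive SLPI-high cells, so its highest level was outside the class. Against all other kept cells the ratios were 1.35 (1.21 to 1.51) for FILIP1, 1.34 (1.15 to 1.55) for WWTR1, 1.33 (1.18 to 1.5) for ANGPTL4 and 1.10 (0.95 to 1.27) for HHEX, and none of the 4 reached the 1.5-fold call. Against cycle-positive SLPI-low cells only ANGPTL4 did, at 1.78 (1.57 to 2.01), where 1.58% of 5692 genes were called higher, 8.45% were called lower and 43.8% lay above a ratio of 1.

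The markers were common among members but not particular to them. A UMI of FILIP1 was seen in 76.8% of members (70.0 to 82.6) and in 69.3% of cycle-positive SLPI-low cells, against 15.2% of the collagen-rich reference cells with a median depth of 10605 UMIs. For WWTR1 the shares were 55.7%, 50.2% and 10.5%, for HHEX 62.2%, 61.2% and 3.61%, and for ANGPTL4 64.3%, 50.2% and 18.8%. A member held at most 9 UMIs of FILIP1, 4 UMIs of WWTR1, 6 UMIs of HHEX and 17 UMIs of ANGPTL4. After thinning, 6 members (3.24%) had no UMI of any of the 4 genes, as had 16.9% of cycle-positive SLPI-low cells, 9% of cycle-negative SLPI-high cells and 11.7% of cycle-positive SLPI-high cells.

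**Figure D2:**
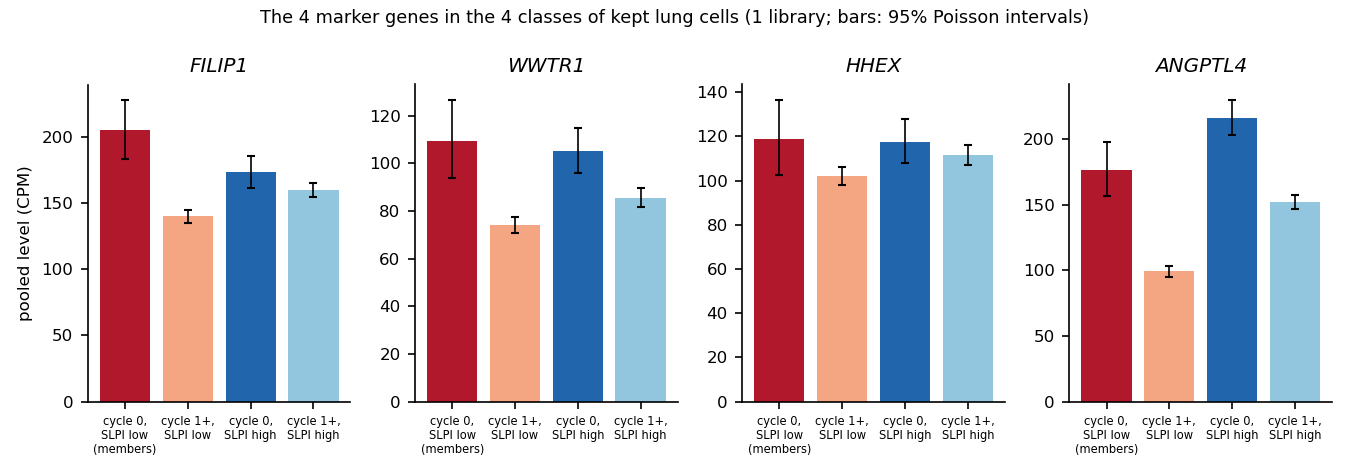
Pooled level (y axis, CPM, from 0) of FILIP1, WWTR1, HHEX and ANGPTL4 in the 4 classes of kept lung cells, 185, 2260, 500 and 1945 cells from left to right, with 95% Poisson intervals for counting error. FILIP1, WWTR1 and ANGPTL4 are lowest in cycle-positive SLPI-low cells, ANGPTL4 is highest in cycle-negative SLPI-high cells, and the bars of HHEX differ little.

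The levels were graded and showed no step at the limit of the class. Summed over the 4 markers, SLPI-low cells had 609 CPM at 0 UMIs of the 8 cycle genes (the members), 551 CPM at 1 UMI, 522 CPM at 2 to 3 UMIs, 430 CPM at 4 to 9 UMIs, 354 CPM at 10 to 19 UMIs and 327 CPM at 20 or more. In SLPI-high cells the sum was 612, 623 and 609 CPM in the first 3 of these bins and 372 CPM in the last. The mitosis list went the other way, from 845 CPM in members to 1137 CPM at 1 UMI and 7141 CPM at 20 or more. Deeper cells fill the upper bins, with a median of 13386 UMIs at 20 or more against 8895 UMIs in members, and the part of depth in these slopes was not tested.

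**Figure D3:**
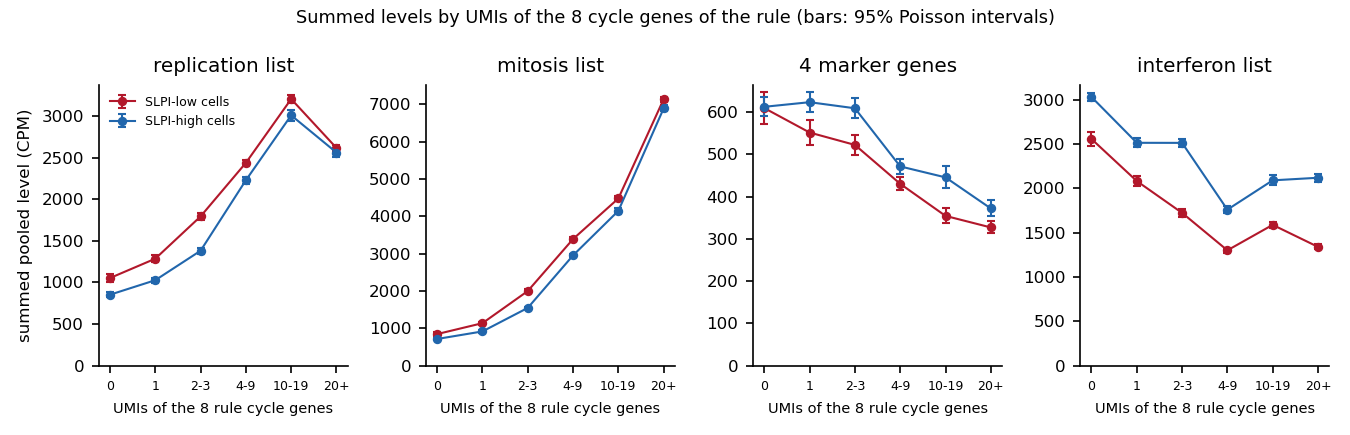
Summed pooled level (y axis, CPM, from 0) of the replication list, the mitosis list, the 4 markers and the interferon list in bins of UMIs of the 8 cycle genes of the rule (x axis), for SLPI-low (red) and SLPI-high (blue) cells, with 95% Poisson intervals. The leftmost red point is the 185 members, with 609 CPM of the markers and 845 CPM of the mitosis list, and the points to its right change by degrees.

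Genes that hold cells out of the cycle did not stand out in the class. CDKN1B (p27), an inhibitor of cyclin-dependent kinases tied to contact inhibition, was at 27.5 CPM (45 UMIs) in members and 34.5 CPM in the other kept cells, a ratio of 0.80 (0.58 to 1.07). CDKN1A (p21) had 4 UMIs in all members and CDKN1C (p57) had 3 UMIs, or 2.45 and 1.83 CPM, with 1.21 and 2.50 CPM in the other kept cells. The ratio of CDKN1A was 2.03 with an interval of 0.53 to 5.47, so a difference of either sign was not detectable at this depth. CCND1 (cyclin D1), which drives G1, was at 204 against 202 CPM (1.01, 0.905 to 1.13), and CDK6, its kinase, at 179 against 154 CPM (1.17, 1.03 to 1.31). BTG2, an antiproliferative gene, had a ratio of 1.22 (1.01 to 1.47) with 73.4 CPM in members. Of 15 tested genes of the list of G1 cyclins, CDK inhibitors and pocket proteins, none was called higher and 2 were called lower, CDKN2C at 15.3 against 28.2 CPM and RBL1 (p107) at 5.5 against 20.7 CPM. Both reached 20 CPM only in the other kept cells, so they had to lie below a ratio of 1. The median log2 ratio of the list was -0.14, beside -0.03 over all 5623 genes, of which 5.73% were called lower.

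Genes of flow and Notch signalling, which are linked to endothelial quiescence, were mixed. Of 15 tested, 10 lay above a ratio of 1, none was called higher and 1 was called lower, with a median log2 ratio of 0.03. Of all 5623 genes 44.4% lay above 1 and 5.73% were called lower. JAG1, a Notch ligand, was at 61.8 CPM in members against 45.8 CPM in the other kept cells (1.35, 1.09 to 1.65), and HEY1, a Notch target, at 112 against 92.4 CPM (1.21, 1.04 to 1.40). JAG2, a second ligand, was the gene called lower, at 17.7 against 33.5 CPM (0.53, 0.35 to 0.76), and NOTCH1 was at 26.3 against 37.0 CPM (0.71, 0.51 to 0.96). JAG2 reached 20 CPM only in the other kept cells, so it had to lie below a ratio of 1. KLF4, a factor induced by flow, was at 21.4 against 22.3 CPM, and NOS3, the endothelial nitric oxide synthase, at 50.2 against 47.5 CPM. In the Hippo pathway around WWTR1, no gene of 19 was called and 8 lay above a ratio of 1, near the 44.4% of all genes. Its partner YAP1 was at 32.4 against 33.0 CPM, and ANKRD1, a target of both, at 3606 against 3526 CPM.

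Of 22 endothelial surface and junction genes, 18 lay above a ratio of 1 to the other kept cells, with a median log2 ratio of 0.08. Of all 5623 genes 44.4% lay above 1. Among the 20 surface genes that reached 20 CPM in both groups, 16 lay above 1 and none was called. JAM2, a junction molecule at 23.2 against 14.7 CPM (1.58, 1.11 to 2.19), was called and reached 20 CPM in members only. Against cycle-negative SLPI-high cells 8 of 22 surface genes lay above 1, with a median log2 ratio of -0.04, where 52.9% of 5451 genes lay above 1. Against the other kept cells ECSCR, a surface regulator of EC migration, was at 705 against 622 CPM (1.13, 1.07 to 1.2), CAVIN2, a caveolar coat protein, at 231 against 183 CPM (1.26, 1.14 to 1.40), and CAV1, the caveolin itself, at 1447 against 1276 CPM (1.13, 1.09 to 1.18). ICAM2, an adhesion molecule, lay between 337.5 and 338.2 CPM in the 4 classes. Of 17 endothelial transcription factors 11 lay above 1 and none was called (9 of 17 against cycle-negative SLPI-high cells), with TCF4 at 461 against 399 CPM (1.16, 1.07 to 1.24) as one of the higher and HOXA5 at 36.1 against 43.7 CPM (0.83, 0.63 to 1.07) as one of the lower. Levels are shares of all UMIs, so UMIs that cycle genes do not take are spread over the others. The 8 rule genes and the replication and mitosis lists together took 1897 CPM in members and 6374 CPM in the other kept cells, a difference of 0.448% of all UMIs.

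Genes of glycolysis and hypoxia lay above a ratio of 1 in 21 of 25 cases with none called, beside 44.4% of all genes, and their median log2 ratio was 0.14. This was not particular to members. Cycle-negative lay above cycle-positive SLPI-high cells in 21 of 25 cases too. Members lay above cycle-negative SLPI-high cells in 14 of 25, with a median log2 ratio of 0.006. LDHA, which makes lactate, was at 741 against 590 CPM (1.26, 1.18 to 1.33), and BNIP3, a mitophagy gene induced by HIF, at 509 against 390 CPM (1.3, 1.22 to 1.4). VEGFA at 18.3 against 25.9 CPM (0.71, 0.48 to 1.015) was below 1, and reached 20 CPM only in the other kept cells. Cholesterol synthesis genes lay above 1 in 13 of 19 cases. The count was 16 of 19 for cycle-negative against cycle-positive SLPI-high cells, and 7 of 19 for members against cycle-negative SLPI-high cells. INSIG1, which holds back SREBP processing when sterol is plentiful, was called higher at 46.5 against 26.8 CPM (1.74, 1.36 to 2.19). Of the genes around ANGPTL4 in lipid handling, ACAA2, a thiolase of fatty acid oxidation, was called higher at 34.9 against 21.3 CPM (1.63, 1.23 to 2.13), while FABP3, which binds fatty acids, was at 145 against 182 CPM (0.80, 0.70 to 0.91).

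Among genes at 50 CPM or more, the highest ratios to the other kept cells were those of CCL5 and of interferon-stimulated genes, and these came from few cells. CCL5 (RANTES), a chemokine that draws T cells, was at 300 CPM (274 to 327) in members and 77.7 CPM in the other kept cells, a ratio of 3.86. Of its 490 UMIs, 303 lay in 1 member and 96.5% lay in 5 members, and only 21 of the 185 members (11.4%, 7.17 to 16.8) had any. In cycle-positive SLPI-low cells 5.49% had a UMI, in cycle-negative SLPI-high cells 14.8%, in cycle-positive SLPI-high cells 10.6% and in the collagen-rich reference 5.78%. RSAD2 (viperin) was at 60.6 against 27.3 CPM with 65.7% of UMIs in 5 members, IFIT1, which binds viral RNA, at 133 against 65.9 CPM with 56.2%, and ISG15, a ubiquitin-like protein, at 845 against 537 CPM with 57.3%. For FILIP1 the 5 members with most UMIs held 10.1%.

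The 5 members with most interferon UMIs were next left out, with the other classes kept whole. CCL5 was then below the other kept cells, at 32.2 CPM and a ratio of 0.41, and ISG15 was at 408 CPM and 0.76. IFIT1 was then at a ratio of 1.05 and RSAD2 at 0.83, while FILIP1 was at 1.36, WWTR1 at 1.31, HHEX at 1.10 and ANGPTL4 at 1.32. A higher share of members than of cycle-positive SLPI-low cells nevertheless had over 20 interferon UMIs after thinning, 14.6% (9.84 to 20.5) against 6.06% (5.11 to 7.13). In cycle-negative SLPI-high cells the share was 17.8% (14.5 to 21.4), and in cycle-positive SLPI-high cells 11.3% (9.94 to 12.8). Both cycle-negative classes thus had a larger share than the cycle-positive cells on their side of the SLPI limit, and the members did not have the largest of the 4. Of the interferon genes, MX2 (1.87), ISG12(A) (1.95) and IFI6 (1.80) were also among the highest ratios to cycle-positive SLPI-low cells. Of 19 interferon genes tested, 10 were called higher in members than in cycle-positive SLPI-low cells, where 1.58% of 5692 genes were called higher. Of the 19, 4 reached 20 CPM in members only and so had to lie above 1. The 15 that reached it in both classes all lay above 1. Among SLPI-high cells, 7 of 19 were called higher in cycle-negative than in cycle-positive cells, where 0.573% of genes were called higher, 5.37% lower, and 44.2% lay above 1. Without the same 5 members, 2 of 17 interferon genes tested were called higher than in cycle-positive SLPI-low cells and 13 lay above 1, with ISG15 at a ratio of 0.98, RSAD2 at 1.18 and IFIT1 at 1.39. The compared class was uneven too, as 61 of its cells held 96.0% of its CCL5 UMIs. With each gene's top cells left out of both classes (5 members, 61 cycle-positive SLPI-low cells), members stayed higher than cycle-positive SLPI-low cells. The remaining UMIs, scaled to the whole class, gave CCL5 10.4 against 2.66 CPM and RSAD2 20.8 against 4.18 CPM. IFIT1 was at 58.1 against 26.3 CPM and ISG15 at 360 against 241 CPM. Cycle-negative SLPI-high cells without 14 top cells had 15.7, 17.7, 65.8 and 520 CPM. Cycle-positive SLPI-high cells without 53 top cells had 9.01, 8.47, 45.6 and 372 CPM, so ISG15 was not higher in members than in that class.

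The interferon-stimulated response element (ISRE), searched as 2 copies of GAAA spaced by 2 bases of any kind, was in 13 of 25 promoters of the interferon list (52.0%) and in 3.56% of all. It was in the window of FILIP1 but not in those of CCL5, WWTR1, HHEX and ANGPTL4. The interferon genes with the highest ratio to cycle-positive SLPI-low cells among those with the motif before the gene start were RSAD2, OAS2 and ISG15, and their windows are shown because these genes lead the list.
RSAD2 (chr3:128897905-128897964, minus strand): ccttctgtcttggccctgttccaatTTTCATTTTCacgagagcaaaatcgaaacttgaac
OAS2 (chr14:38847698-38847757, minus strand): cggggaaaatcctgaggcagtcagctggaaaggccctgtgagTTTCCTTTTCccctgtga
ISG15 (chr6:63363068-63363127, plus strand): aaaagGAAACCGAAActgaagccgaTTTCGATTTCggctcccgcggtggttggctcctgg
The capitals mark the motif on either strand, and the window of ISG15 holds it 2 times.

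**Figure D4:**
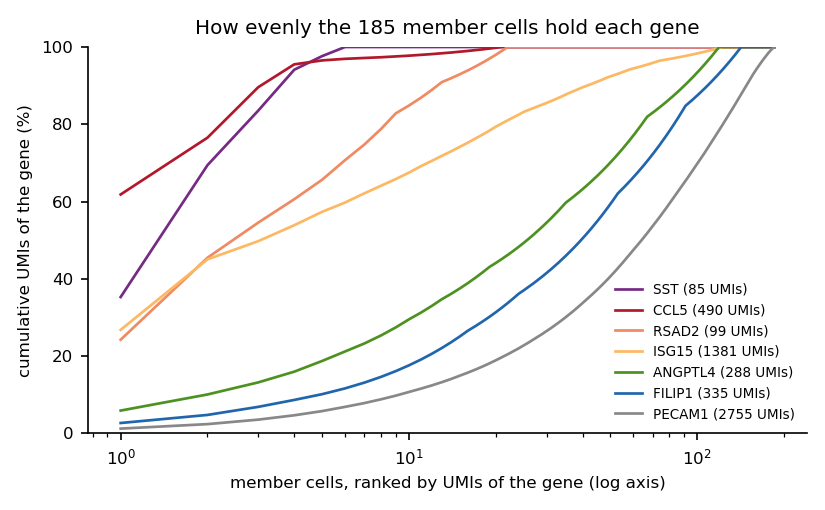
Cumulative share of the UMIs of a gene (y axis, %) over the 185 members ranked by their UMIs of that gene (x axis, log scale). SST and CCL5 reach over 95% within 5 members, RSAD2 and ISG15 lie between, and ANGPTL4, FILIP1 and PECAM1 are spread over most members.

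The remaining genes with the highest ratios were close to the limit. They were APOBEC3B, a cytidine deaminase, at 72.8 against 47.8 CPM (1.52, 1.25 to 1.83), HID1 (1.44), MYO9B (1.43), INPP1 (1.42), ARF5 (1.41), CRIPT (1.39) and GRIP1 (1.39), each spread over members with at most 17.1% of UMIs in 5 cells. SST, the hormone somatostatin, had a ratio of 1.42 from 85 UMIs, of which 97.6% lay in 5 members and only 6 members had any. Only 5 genes at 50 CPM or more were called higher, which are CCL5, RSAD2, IFIT1, ISG15 and APOBEC3B.

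The SLPI limit set members apart from cycle-negative cells in another way. Of 5451 genes tested, 101 were called higher in members (1.85%) and 140 lower (2.57%), and 52.9% lay above a ratio of 1. The lowest were MGP, a matrix inhibitor of calcification, at 12.8 against 58.9 CPM (0.22, 0.13 to 0.34), and GDF15, a stress cytokine, at 25.7 against 65.3 CPM (0.39, 0.28 to 0.54). Of these, MGP reached 20 CPM only in cycle-negative SLPI-high cells, so it had to lie below a ratio of 1. ZMAT3, a p53 target that binds RNA, was at 67.3 against 138 CPM (0.49, 0.39 to 0.60), FGF2, a growth factor for ECs, at 127 against 232 CPM (0.55, 0.47 to 0.64), and FN1 (fibronectin) at 113 against 203 CPM (0.55, 0.47 to 0.65). TIMP3, an inhibitor of metalloproteases, stood at 59.9 against 114 CPM (0.53), ADIRF at 25.7 CPM in members (0.51) and XPC, a sensor of DNA damage, at 37.9 against 66.2 CPM (0.57). In cycle-positive SLPI-low cells MGP (9.74 CPM), GDF15 (23.1 CPM), ZMAT3 (64.1 CPM) and FN1 (110 CPM) were near the level of the members. MGP in members was itself uneven, with 76.2% of its 21 UMIs in 5 cells.

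By list, 5 of 11 p53 targets were called lower in members than in cycle-negative SLPI-high cells (median log2 ratio -0.55), 4 of 23 matrix genes (-0.27) and 2 of 21 lysosome and autophagy genes (-0.27), while the median of all 5451 genes was 0.02. Of these genes, 10 p53 targets, 22 matrix genes and 20 lysosome genes reached 20 CPM in members. The rest reached it only in cycle-negative SLPI-high cells, so they had to lie below a ratio of 1. MDM2, which degrades p53 and is its target, was at 48.3 against 76.7 CPM (0.63, 0.49 to 0.81). COL8A1, a short-chain collagen of vessel walls, was at 137 against 207 CPM (0.66, 0.57 to 0.77), MMP2 at 206 against 300 CPM (0.68, 0.61 to 0.77) and ESM1 (endocan) at 665 against 1040 CPM (0.64, 0.60 to 0.68). Of the lysosome list only 1 gene of 21 lay above a ratio of 1.

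Genes of growth and replication went the other way across the SLPI limit, although both classes were cycle-negative. Summed over all measured genes of a list, with no filter, the replication list was at 1052 CPM (1003 to 1103) in members and 852 CPM (825 to 879) in cycle-negative SLPI-high cells, and the mitosis list at 845 CPM (801 to 890) and 713 CPM (689 to 738). The ribosome biogenesis list was at 5395 CPM (5283 to 5508) and 4171 CPM (4113 to 4231). Of list genes at 20 CPM or more in both classes, 5 of 5 replication, 6 of 8 mitosis, 15 of 16 ribosome biogenesis and 15 of 17 chromatin genes lay above a ratio of 1. MYBL2 (B-Myb), the factor of the MuvB complex, was at 80.1 CPM in members and 39.2 CPM in cycle-negative SLPI-high cells (2.04, 1.62 to 2.57), and BIRC5 at 59.9 against 36.6 CPM (1.64, 1.26 to 2.11). NPM3, a nucleolar chaperone, was at 185 against 108 CPM (1.70, 1.47 to 1.97), and ASNS, which makes asparagine, at 74.6 against 43.3 CPM (1.72, 1.36 to 2.17). AHCY, of the methylation cycle, was at 58.7 against 33.4 CPM (1.76, 1.35 to 2.28) and FABP3 at 145 against 87.3 CPM (1.66, 1.41 to 1.95). These genes were higher still in cycle-positive SLPI-low cells, with MYBL2 at 196 CPM, BIRC5 at 122 CPM, ASNS at 114 CPM and NPM3 at 206 CPM, so that members lay between the other 2 classes. Median depth was 8895 UMIs in members and 8768.5 UMIs in cycle-negative SLPI-high cells, and the mitochondrial share 5.48% and 6.31%.

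**Figure D5:**
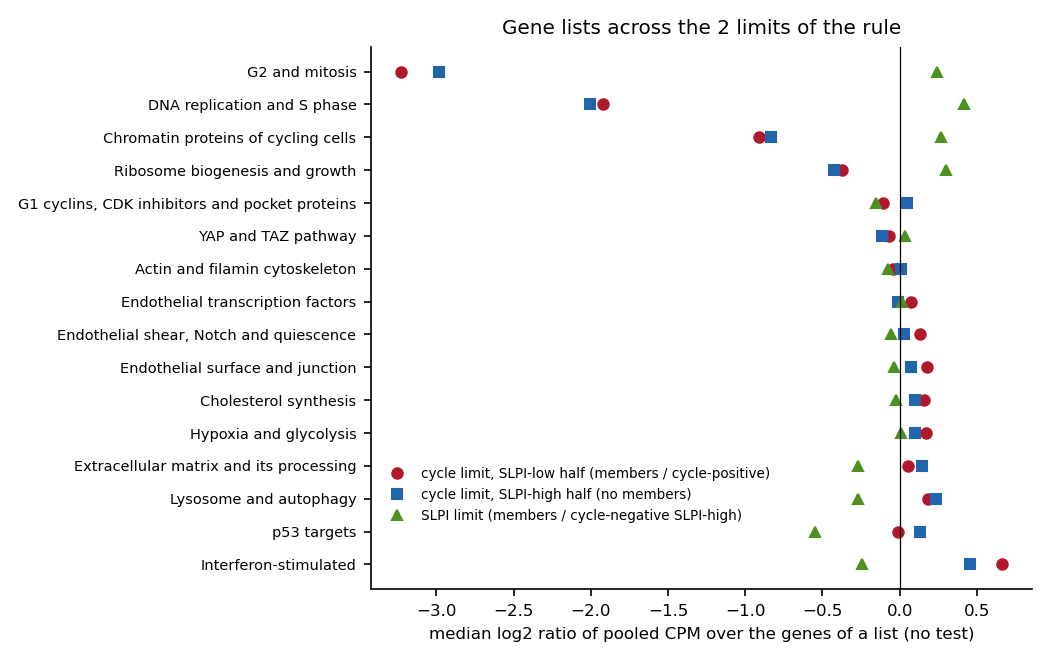
Median log2 ratio of pooled CPM (x axis) over the genes of 16 lists (y axis) that reached 20 CPM in either class compared, across the cycle limit among SLPI-low cells (red circles), across the cycle limit among SLPI-high cells, which hold no member (blue squares), and across the SLPI limit among cycle-negative cells (green triangles). Mitosis genes stand at -3.23 and -2.98 across the cycle limit, and p53 targets at -0.01, 0.13 and -0.55.

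Few genes varied among members far beyond counting noise at this depth. In thinned members the variance of UMIs over their mean had a median of 1.03 over 3138 genes, which is near the value of 1 for counting noise, and a 95th percentile of 1.38. Genes entered from a mean of 0.2 UMIs, and at low means this ratio stays near 1 even where cells differ. A value near 1 thus does not show that members were alike. The highest ratios were those of CCL5 (79.8), ISG15 (57.3), SST (16.1), POSTN (7.95), AMCF-II (7.46), IFIT1 (7.28), IFI6 (6.99), RSAD2 (6.71), ISG12(A) (5.85) and STMN2 (5.68). POSTN (periostin), a matrix protein of mesenchymal cells, was seen in 33.0% of thinned members, with at most 22 UMIs and 24.7% of its UMIs in 5 cells, so it marks more members than CCL5 does. AMCF-II, a pig chemokine, was seen in 25.4% and STMN2, a tubulin-binding protein of neurons, in 7.03%. In the other kept cells the ratio was 8.57 for POSTN, 41.6 for CCL5 and 12.7 for SST, so the same genes were uneven there too.

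The same limits gave 9 cells of 63 kept in the aorta library, too few to describe beyond the markers given below. With no upper limit on genes and each cell thinned to 5000 UMIs, 55 of 387 aorta cells (14.2%) met the rule. In these, 27 of 31 replication genes and 40 of 41 mitosis genes were called lower than in the other kept aorta cells, where 10.8% of 6177 genes were called higher and 19% lower. Genes that reached 20 CPM only in the other kept aorta cells had to lie below a ratio of 1. KIF11, at 7.27 against 99.4 CPM, was such a gene, and their number was not counted. WWTR1 in the 55 cells was at a ratio of 1.47 (0.94 to 2.22), ANGPTL4 at 1.16 (0.60 to 2.07), FILIP1 at 1.12 (0.64 to 1.87) and HHEX at 0.63 (0.37 to 0.99). The intervals of the first 3 included 1, and that of HHEX, from 20 UMIs, ended just below 1. In the 9 cells HHEX was at 1.14 (0.47 to 2.38) from 8 UMIs and WWTR1 at 3.27 (1.73 to 5.88) from 16 UMIs. There 28% of 6522 genes were called higher, and the intervals of FILIP1 and ANGPTL4 included 1. CCL5 in the 55 cells was at 18.2 against 108 CPM (0.17, 0.054 to 0.40) and ISG15 at 775 against 811 CPM. The libraries shared 5 barcodes, 0.422% of those of the aorta, and lung and aorta differ in depth, so levels were not compared between them.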

How the data were processed

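Cultured primary pig lung ECs and aorta ECs were measured by 10x 3′ scRNA-seq, 1 library each. The authors deposited raw counts (UMIs per gene and cell), without normalization, and per the submitters' processing notes they came from Cell Ranger 3.0.2. The methods name the build Sscrofa11.1. The limits on cells were applied here. The lung library had 5682 cells within the limits on genes and mitochondrial UMIs. Of these, 426 had under 5000 UMIs, 292 fewer than 3 PECAM1 UMIs and 74 over 2 collagen UMIs. Doublets were not called. The deepest member had 20346 UMIs.

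Counts were summed per class and given as CPM. Cells were not treated as replicates, and no p-value was computed. A count of 0 stood at 3 counts in ratios. Of 22804 genes, 7821 had no symbol and 1051 of these were named from a gene table. Genes named are the 4 markers, the genes with the largest ratios at 50 CPM or more (12 each way and 12 more outside the cycle, histone and chromatin lists for all other kept cells, 8 each way for the other contrasts), up to 6 genes of each list by level and ratio, and the 10 with the highest variance over mean. The other genes were chosen after their values were seen. Members and lists were chosen with earlier results of these data known. Ratios and the Poisson interval were tested on simulated counts without added variation between cells. The intervals of ratios were not tested in this way. Promoter windows are RefSeq gene starts. Python 3.11 tools were numpy, pandas, scipy and pysam.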

Additional observations from a re-analysis of the deposited data

How the results depend on the processing

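With 1 library per tissue, intervals cover counting error only, and depth limits the genes near 20 CPM most. Members numbered 475 when cells were thinned to 5000 UMIs first, 544 when the rule was read from UMIs drawn at random with a chance of 0.5 and levels from the remaining UMIs, 115 at a minimum of 8000 UMIs, and 0 when at most 2 UMIs of the replication and mitosis lists were also allowed, so nothing else could be computed under that limit. Genes called higher numbered 15 after thinning, 10 from the split UMIs, 80 at 8000 UMIs, 5 with a filter of 50 CPM and 1853 with no filter except 10 UMIs, against 38. Genes called lower numbered 89 at 50 CPM and 1475 with no filter, against 322, replication genes 7 and 42 against 24, mitosis genes 22 at 50 CPM against 40, and endothelial genes above a ratio of 1 numbered 19 at 50 CPM against 29. These filters change the number of genes tested, from 3014 to 12547. In the other alternatives the counts stayed within 1.5 times of the reported ones, with 33 to 53 genes higher, 216 to 402 lower, 22 to 25 replication and 36 to 49 mitosis genes lower. Leaving out 5 members with most interferon UMIs was an alternative chosen after seeing the data, and took the interferon genes called higher than in cycle-positive SLPI-low cells from 10 to 2. No cell of the other classes was left out there. The ratios of the markers to the other kept cells ranged from 1.2 to 1.38 for FILIP1, 1.21 to 1.37 for WWTR1, 1.02 to 1.14 for HHEX and 1.14 to 1.39 for ANGPTL4, above 1 in all alternatives run. No paired analysis was possible because each tissue had 1 library and no test was made. No library could be left out.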
